A study of Mus musculus with 90 samples.

Results

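The genes described here are 10 genes of the growing oocyte and of the zona pellucida, the glycoprotein coat around it: Zp1, Zp2, Zp3, Gdf9, Bmp15, Figla, Nobox, Oosp1, Nlrp5 and Ooep. They were chosen by name and found by their Entrez Gene identifiers, and all 10 were listed among the 20414 genes of the expression matrix. RNA-sequencing had been performed on 15 tissues of female C57BL/6 mice, 10 weeks old by the sample labels (the methods of the study name the substrain C57BL/6J and a younger age), with 3 libraries from estrus and 3 from diestrus for each tissue, 90 in all. The mice were untreated, and the phases were assigned from vaginal smears, with serum estrogen and progesterone also measured as an aid. Levels are FPKM, fragments for each kilobase of transcript, scaled to the library's total, so that levels of different genes may be compared per length. The question here was where these genes were detected and whether the ovary of estrus and of diestrus mice differed in them.

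An oocyte arrested in meiosis sits in each ovarian follicle and grows while the surrounding granulosa cells divide. Figla, a basic helix-loop-helix factor that binds E-boxes, and Nobox, a homeobox factor, switch on the oocyte's own genes, among them those of the zona pellucida. ZP2 and ZP3 assemble into the filaments of the zona, which ZP1 crosslinks, and sperm bind to this coat. GDF9 and BMP15 are ligands of the TGF-beta family that the oocyte secretes to act on granulosa cells, Oosp1 encodes another secreted protein of the oocyte, and NLRP5 and OOEP are subunits of the subcortical maternal complex, which the embryo needs for its first divisions.

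Since Figla acts through E-boxes, the promoters of the genes were searched for that motif. The RefSeq table (GRCm38.p6) held the 250 bases before the transcription start for 7 of the 10 genes, and no window was used for Zp1, Zp2 and Gdf9. Where Nlrp5 had a pair of windows, the first listed was counted. The general E-box CANNTG, which reads alike on both strands, was present in 7 of 7 windows, and 66.0% of all 27025 windows of the same length held it. Its version CACCTG, searched on both strands and contained in the general motif, was present in 4 of 7 windows, compared with 17.1% of all windows and with 10 of 26 windows of the other oocyte genes listed further on. These 4 are shown because they hold the narrower motif. Capitals mark every CANNTG, 5′ to 3′ on the strand of the gene.
Zp3 (GRCm38.p6, chr5:135979855-135980104, plus strand): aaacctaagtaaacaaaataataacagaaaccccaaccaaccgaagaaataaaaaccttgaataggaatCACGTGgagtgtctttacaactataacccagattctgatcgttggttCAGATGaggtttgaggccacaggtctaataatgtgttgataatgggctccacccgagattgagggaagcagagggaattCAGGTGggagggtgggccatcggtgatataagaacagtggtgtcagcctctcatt
Figla (GRCm38.p6, chr6:86016941-86017190, plus strand): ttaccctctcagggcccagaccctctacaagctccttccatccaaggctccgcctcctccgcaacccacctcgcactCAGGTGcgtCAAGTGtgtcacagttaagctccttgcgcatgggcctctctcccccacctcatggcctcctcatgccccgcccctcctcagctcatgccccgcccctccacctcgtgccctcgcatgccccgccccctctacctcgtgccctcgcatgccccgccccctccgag
Nobox (GRCm38.p6, chr6:43309555-43309804, minus strand): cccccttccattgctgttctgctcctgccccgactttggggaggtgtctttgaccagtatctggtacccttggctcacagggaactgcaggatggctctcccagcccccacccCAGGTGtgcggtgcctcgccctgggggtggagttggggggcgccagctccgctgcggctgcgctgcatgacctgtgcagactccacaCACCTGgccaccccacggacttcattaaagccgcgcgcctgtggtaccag
Oosp1 (GRCm38.p6, chr19:11691052-11691301, minus strand): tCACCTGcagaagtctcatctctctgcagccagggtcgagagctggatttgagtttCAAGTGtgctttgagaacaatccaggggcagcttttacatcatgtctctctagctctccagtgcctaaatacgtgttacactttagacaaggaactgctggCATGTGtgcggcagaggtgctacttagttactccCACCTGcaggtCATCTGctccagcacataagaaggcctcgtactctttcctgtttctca

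Counted from the start site, the CACCTG match (or CAGGTG, its other strand) began at -55 in Zp3, at -173 in Figla, at -137 and -50 in Nobox, and at -249 and -59 in Oosp1. The homeobox motifs TAATTG and TAATTA, searched on both strands, were each present in 1 of the 7 windows, in Ooep and in Bmp15, and in 7.34% and 4.90% of all windows. The letters TATAAA were present in 2 of 7 windows, those of Bmp15 and Nlrp5, and in 13.0% of all windows. The other window of Nlrp5, which was not counted, held TAATTA and did not hold TATAAA, so both counts depend on the window taken. These matches describe letters in a short window and not binding.

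All 10 genes were highest in ovary. For each of them, the lowest of the 6 ovary libraries was above the highest of the 84 libraries of the other 14 tissues, and this held for 489 of the 13587 genes that averaged 1 FPKM or more in ovary (3.6%) and for 554 of all 20414 genes (2.71%). Since the genes were chosen as oocyte genes, this is a description of their distribution and not a test. The summed level of the 10 genes was 131 to 298 FPKM in the ovary libraries and 7.45 FPKM or less in every other library. Of the 840 values outside ovary, 415 (49.4%) were listed at 0 and 27 reached 1 FPKM.

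**Figure D1:**
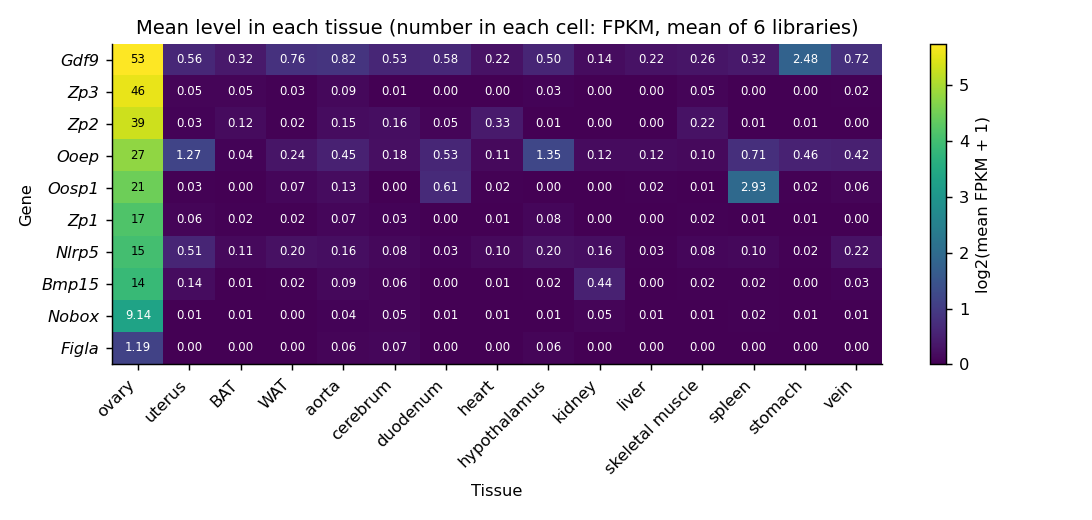
Mean FPKM of each gene (rows) in each tissue (columns), with the color on a log2(mean FPKM + 1) scale and the mean over 6 libraries printed in each cell. The ovary column holds 1.19 to 52.6 FPKM, and the highest mean elsewhere is 2.93 FPKM, for Oosp1 in spleen.

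In ovary, the order of the mean levels was Gdf9 (52.6 ± 12.6 FPKM, SD, n = 6), Zp3 (45.9 ± 12.5), Zp2 (38.5 ± 7.97), Ooep (26.6 ± 7.88), Oosp1 (21.1 ± 6.49), Zp1 (16.9 ± 3.84), Nlrp5 (15.3 ± 2.85), Bmp15 (13.7 ± 4.02), Nobox (9.14 ± 1.87) and Figla (1.19 ± 0.496). The ranges over the 6 libraries overlapped for all neighbors in this order except Nobox and Figla. Compared within each library, however, most neighbors kept their order in 6 of 6 libraries. The exceptions were Zp3 above Zp2 in 5 of 6, Zp1 above Nlrp5 in 5 of 6, and Nlrp5 above Bmp15 in 4 of 6. The transcription factors Nobox and Figla were thus the lowest of the 10 per length, and Gdf9 took 20.8% to 22.9% of the summed level of the 10 genes in every ovary library. At the approximate depth of 16.0M to 17.1M reads per ovary library, Figla rested on approximately 7 to 23 reads, and its values carry a large counting error.

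The zona pellucida genes were measured at similar levels in 5 of the 6 ovary libraries. Zp2, whose product takes part in sperm binding, had 40.9, 44.9 and 23.1 FPKM in estrus replicates 1 to 3 and 44.2, 38.4 and 39.7 FPKM in diestrus replicates 1 to 3. Zp3, the other filament subunit, had 50.2, 57.3 and 21.7 FPKM in estrus and 52.8, 45.3 and 48.3 FPKM in diestrus. Zp1, the crosslinker, had 18.7, 19.7 and 9.38 FPKM in estrus and 19.1, 16.5 and 17.8 FPKM in diestrus. For all 3 genes, estrus replicate 3 was the lowest library and estrus replicate 2 the highest, so that the phases overlapped. Estrus minus diestrus, the log2 fold change was -0.21 for Zp2 (SE 0.24, limma, adjusted p = 0.912), -0.29 for Zp3 (SE 0.34, adjusted p = 0.914) and -0.21 for Zp1 (SE 0.26, adjusted p = 0.919).

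The proportions among the zona transcripts varied less than their levels. The ratio of Zp1 to Zp2 in FPKM was 0.436 ± 0.0179 (SD, n = 6), with a coefficient of variation of 4.11%, whereas the levels of Zp1 and Zp2 varied by 22.7% and 20.7%. Without estrus replicate 3, these values were 2.61% for the ratio, 6.79% for Zp1 and 6.83% for Zp2. The ratio of Zp3 to Zp2 was between 1.18 and 1.27 in 5 libraries and 0.940 in estrus replicate 3, the 1 library in which Zp3 was below Zp2.

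The secreted ligands behaved as follows. Gdf9, which sustains granulosa cell growth and cumulus expansion, had 53.6, 62.2 and 28.5 FPKM in estrus and 62.5, 56.8 and 51.9 FPKM in diestrus. Bmp15, its partner ligand, had 15.5, 19.9 and 8.13 FPKM in estrus and 13.8, 14.1 and 10.8 FPKM in diestrus. The phases overlapped for both genes, and estrus replicate 3 was again lowest. Their log2 fold changes were -0.31 for Gdf9 (SE 0.27, limma, adjusted p = 0.887) and 0.08 for Bmp15 (SE 0.29, adjusted p = 0.975). Bmp15 was the only one of the 10 with a fold change above 0.

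The proportion of the ligands, in contrast, separated the phases in these 6 libraries. The ratio of Bmp15 to Gdf9 was 0.290, 0.320 and 0.286 in the estrus libraries and 0.221, 0.248 and 0.209 in the diestrus libraries. The ratio in estrus replicate 3 lay with the other estrus libraries (two-sided exact permutation test, 3 against 3 libraries, p = 0.1, the smallest this design can give). It was 1 of 4 ratios computed, chosen with the values of the genes known, and the other 3 had exact permutation p-values of 0.7 to 1.0.

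Oosp1 had 23.8, 29.3 and 9.52 FPKM in estrus and 21.9, 22.0 and 20.0 FPKM in diestrus, with a log2 fold change of -0.16 (SE 0.37, limma, adjusted p = 0.953). Of the subunits of the subcortical complex, Ooep had 31.5, 36.3 and 13.0 FPKM in estrus and 27.6, 27.1 and 24.2 FPKM in diestrus (log2 fold change -0.08, SE 0.35, limma, adjusted p = 0.979). Nlrp5 had 14.6, 17.7 and 10.7 FPKM in estrus and 18.6, 16.2 and 14.1 FPKM in diestrus (log2 fold change -0.19, SE 0.19, limma, adjusted p = 0.906). In Oosp1 and Ooep, estrus held both the highest and the lowest libraries, and the diestrus values lay between them.

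With all 6 ovary libraries, Nobox had the lowest unadjusted p of the 10, although it was not called. It had 8.16, 9.32 and 6.06 FPKM in estrus and 11.5, 10.2 and 9.57 FPKM in diestrus, so that every estrus library was below every diestrus library. The log2 fold change was -0.38 (95% interval -0.76 to -0.01, limma, unadjusted p = 0.0477, adjusted p = 0.837). It was the only one of the 10 whose phases did not overlap, compared with 13.7% of all 13587 tested genes in either direction and 5.58% with estrus below diestrus. Without estrus replicate 3, its log2 fold change was -0.23 (SE 0.11, limma, unadjusted p = 0.0850, adjusted p = 0.352). Figla, the E-box factor, had 1.07, 1.32 and 0.75 FPKM in estrus and 1.44, 1.96 and 0.60 FPKM in diestrus (log2 fold change -0.15, SE 0.28, limma, adjusted p = 0.941). It was the 1 gene whose lowest library was not estrus replicate 3.

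**Figure D2:**
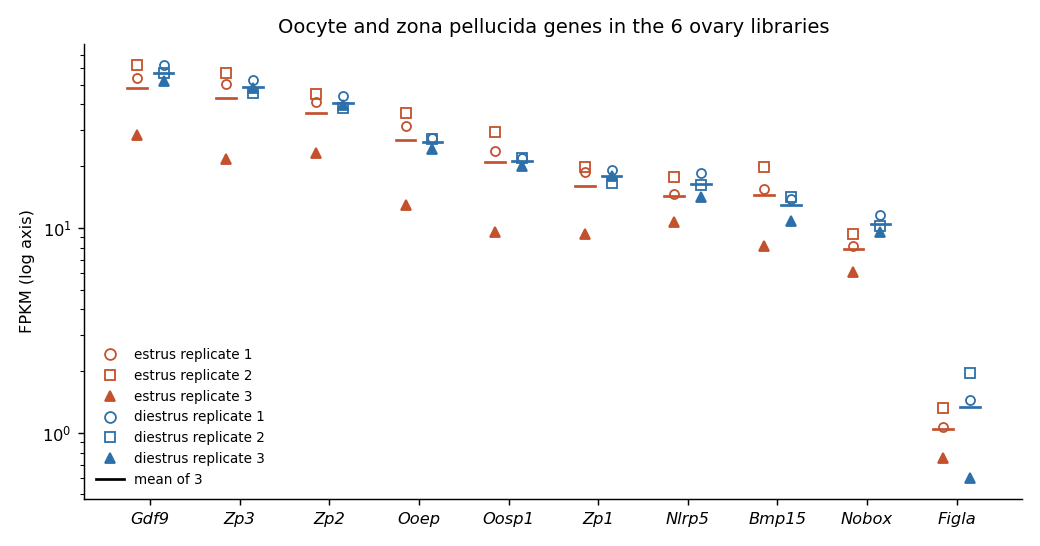
FPKM (log axis) of the 10 genes in the 6 ovary libraries, with estrus in orange, diestrus in blue, a marker shape for each replicate number and a bar at the mean of 3. Estrus replicate 3 (filled orange triangles) is the lowest point of its gene for 9 of the 10, and for Nobox the estrus points lie below the diestrus points.

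A gene was called at an adjusted p of at most 0.05 together with a log2 fold change of 1 or more, up or down. In ovary, 0 of the 10 genes were called by limma, as were 0 of all 13587 genes tested (0.0%). At an unadjusted p under 0.05 there was 1 of the 10, Nobox, and there were 810 of all genes (5.96%). The fold change was below 0 for 9 of the 10 genes and for 46.5% of all genes, and the median was -0.20 for the 10 genes and 0.01 for all genes. A p that misses the limit does not show equal levels: the 95% intervals reached from -1.08 (Zp3) to 0.78 (Bmp15). In bulk tissue, fewer oocytes and less RNA per oocyte cannot be told apart.

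That 9 of the 10 fold changes lay below 0 rested on 1 library. Ovary estrus replicate 3 was the lowest of the 6 libraries for 9 of the 10 genes, compared with 31.9% of all tested genes. Its level was 0.407 (Oosp1) to 0.660 (Nlrp5) of the mean of the other 5 libraries, with a median ratio of 0.529, while the median over all tested genes was 0.972. Without that library, the fold change was below 0 for 3 of the 10 genes (Nobox, Figla and Nlrp5) and the median was 0.09. Ooep then had a log2 fold change of 0.35 (SE 0.10, limma, unadjusted p = 0.0114, adjusted p = 0.183). Bmp15 had 0.43 (SE 0.15, limma, unadjusted p = 0.0288, adjusted p = 0.231) and Oosp1 had 0.30 (SE 0.11, unadjusted p = 0.0330, adjusted p = 0.239). An unadjusted p under 0.05 was also reached by 17.7% of all genes tested in this fit. None of the 10 was called without estrus replicate 3, and 4 of 13280 genes were (0.0301%).

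**Figure D3:**
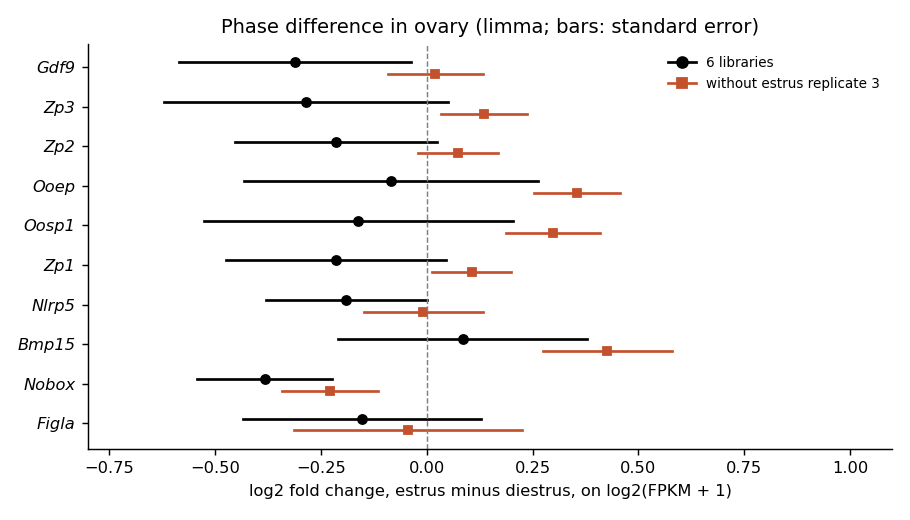
Log2 fold change of each gene in ovary, estrus minus diestrus, from limma on log2(FPKM + 1), with bars of 1 standard error. With 6 libraries (black) 9 of the 10 genes lie below 0, and without estrus replicate 3 (orange) 3 of the 10 do.

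The same library also stood apart in markers of other cell types. All 9 granulosa and 6 luteal cell markers were above 0 in every ovary library. The 7 oviduct epithelium genes summed to 1761 FPKM in it and to between 22.3 and 67.0 FPKM in the other 5 ovary libraries, and Ovgp1, the oviductal glycoprotein, alone was at 1563 FPKM against 2.35 to 39.7 FPKM. The white adipocyte markers summed to 143 FPKM, compared with 7.83 to 39.7 FPKM, and the smooth muscle markers to 864 FPKM, compared with 560 to 655 FPKM. The erythroid markers summed to 389 FPKM, compared with 39.5 to 243 FPKM, and no marker of these 4 lists was at 0 in it. The 9 granulosa cell markers, by contrast, had a median ratio of 0.565 to the other 5 libraries, close to that of the oocyte genes, while the ovarian stroma markers had 0.956 and the luteal cell markers 0.960. The luteal cell markers went both ways, from 0.097 for Akr1c18 to 1.62 for Lhcgr. The ratios were 0.342 to 0.806 for the granulosa cell markers and 0.753 to 1.13 for the ovarian stroma markers. Among the granulosa cell markers, Inha, which encodes the inhibin alpha subunit, was at 1224 FPKM in it and at 1500 to 2408 FPKM in the others. Its median-of-ratios factor was 0.999, within the 0.983 to 1.02 of the 6 libraries, and its summed FPKM was 435614, compared with 471314 to 488782 in the other 5. The part that the scale of the library or the oviduct, fat, muscle or blood markers had in the lower oocyte levels was not tested.

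**Figure D4:**
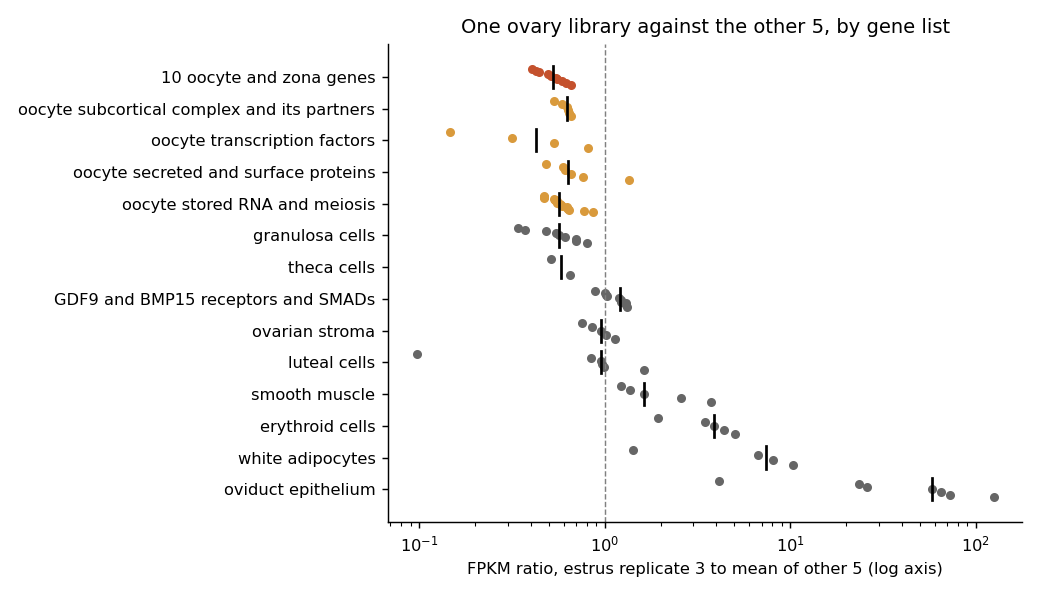
Ratio of the FPKM in ovary estrus replicate 3 to the mean of the other 5 ovary libraries (log axis), with a point for each gene, a black bar at the median of each list and a dashed line at 1. The oocyte lists and the granulosa list have medians of 0.426 to 0.634, and the oviduct epithelium list has a median of 58.4.

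The other oocyte genes had similar values in that library. Of 36 listed genes for the subcortical complex, oocyte transcription, secreted and surface proteins, and stored RNA and meiosis, 34 passed the limit of 1 FPKM in ovary, 0 were called, and 30 had a fold change below 0 (median -0.18). Without estrus replicate 3, 12 of the 34 were below 0 (median 0.05). That library was the lowest for 31 of the 34, with a median ratio of 0.588.

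Of the partners of the subcortical complex, Zbed3 (173 FPKM on average in ovary), Padi6 (47.5 FPKM), a protein of the oocyte's cytoplasmic lattices, and Tle6 (35.9 FPKM), a core subunit, had ratios of 0.646, 0.532 and 0.630 in estrus replicate 3. H1f8, the linker histone of the oocyte, was at 16.4 FPKM in it and at 32.5 to 38.9 FPKM in the other 5. Bcl2l10 was at 13.0 FPKM against 25.3 to 32.6 FPKM, and Npm2, a histone chaperone, at 14.2 FPKM against 22.3 to 26.8 FPKM. Estrus replicate 3 was also the lowest library of Oosp3, a relative of Oosp1, at 3.73 FPKM against 6.35 to 9.78 FPKM. Among the oocyte transcription factors the values were lower: Taf4b averaged 5.76 FPKM, Pou5f1 4.0 FPKM and Lhx8 2.55 FPKM. Sohlh1, which acts in early follicles, had the lowest ratio of the 34 genes, 0.147, at 0.23 FPKM against 0.85 to 2.01 FPKM. The 3 genes for which estrus replicate 3 was not the lowest library were Taf4b, Cpeb1 and Kit. For Kit, a receptor of the oocyte that other ovarian cells also express, it was the highest, at 15.1 FPKM against 7.30 to 14.6 FPKM. Astl, the protease that cleaves ZP2 after fertilization, averaged 6.68 FPKM with a ratio of 0.611.

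When each library was centered on the mean log2(FPKM + 1) of these 34 other oocyte genes, the SD of the 10 genes over the 6 libraries had a median of 0.18, compared with 0.39 before centering. Over the 5 libraries without estrus replicate 3, these medians were 0.12 and 0.16. On this relative scale, 7 of the 10 genes were lower in estrus, and the median difference was -0.05. Gdf9 (difference -0.16) and Nobox (-0.23) were lower in every estrus library than in every diestrus library (two-sided exact permutation test, p = 0.1 for each, the smallest this design can give). These were 2 of the 10 genes without overlap on this scale, compared with 10.2% of all tested genes in either direction. Bmp15 was higher in estrus by 0.24, with overlap (exact permutation p = 0.3). This centering was added after the values were seen.

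The 10 genes varied together across the ovary libraries. Over their 45 pairs, the median Pearson r of log2(FPKM + 1) over 6 libraries was 0.871, from 0.379 for Zp1 and Figla to 0.998 for Zp1 and Zp3, and all 45 were above 0. Without estrus replicate 3, the median over 5 libraries was 0.571 and 38 of the 45 were above 0, so that the correlation was weaker without it. These pairs share libraries, depth and cells, and r is given as a description.

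The genes on the receiving side of GDF9 and BMP15 did not have the low values of the ligands in estrus replicate 3. Of the 10 genes for their receptors and SMADs, all were tested, 0 were called and 5 had a fold change below 0 (median 0.01); without estrus replicate 3, 9 of the 10 were below 0 (median -0.07). Tgfbr1, the type I receptor of GDF9, averaged 36.1 FPKM in ovary and Bmpr2, the shared type II receptor, 33.4 FPKM. Over all 10 receptor and SMAD genes, the ratios in estrus replicate 3 were between 0.882 and 1.32, with a median of 1.21. Tgfbr1 had a log2 fold change of -0.25 (SE 0.12, limma, adjusted p = 0.843). Of the 5 cumulus genes that oocyte factors induce, Grem1 and Tnfaip6 passed the limit of 1 FPKM. Grem1, a secreted BMP antagonist, had 0.32, 2.66 and 1.57 FPKM in estrus and 11.3, 7.92 and 4.62 FPKM in diestrus. Its phases did not overlap, as for 13.7% of all tested genes in either direction and 5.58% with estrus below diestrus. Its log2 fold change of -1.88 was not called (SE 0.43, limma, adjusted p = 0.704). Tnfaip6 went the other way, with a log2 fold change of 0.45 (SE 0.52, limma, adjusted p = 0.913). Ptx3, Ptgs2 and Has2, genes of the expanding cumulus, were at 1.04 FPKM or less in all 6 libraries.

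The 10 genes outside the 10 described whose pattern over the 90 libraries was most like their mean were Padi6, Fbxw24, H1f8, Astl, Obox1, Rfpl4, Pramel26, Pramel25, Ftdc1 and Obox2, with Pearson r between 0.996 and 0.997. Their ovary means were 6.68 to 47.5 FPKM and no library outside ovary held more than 0.76 FPKM of any of them. Over the 6 ovary libraries alone, the closest were Plcxd1, Timm17a, Zfp566, Ptpn2, Slc30a3, Ppp4c, Ccdc115, Tjap1, Fbxw24 and Nup43 (r of 0.990 to 0.997). Of these, Fbxw24 alone was in the first list, and the other 9 had libraries outside ovary above their ovary mean. For example, Timm17a, a mitochondrial import protein, averaged 41.6 FPKM in ovary and reached 160 FPKM elsewhere.

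Outside ovary, 3 of the 10 genes averaged 1 FPKM or more in a tissue. Oosp1 in spleen had 2.64, 4.17 and 2.28 FPKM in estrus and 2.70, 2.93 and 2.84 FPKM in diestrus, and was 0.28 to 0.80 FPKM in duodenum. Gdf9 in stomach had 3.51, 4.82 and 0.51 FPKM in estrus and 2.00, 2.54 and 1.47 FPKM in diestrus. Ooep in hypothalamus had 1.41, 1.23 and 1.2 FPKM in estrus and 1.13, 1.58 and 1.56 FPKM in diestrus. In uterus, Ooep had 0.71, 0.84 and 2.45 FPKM in estrus and 1.34, 0.58 and 1.71 FPKM in diestrus. Its highest value was in estrus replicate 3, where the oviduct epithelium markers summed to 3107 FPKM, compared with 179 to 323 FPKM in the other 5 uterus libraries. The squamous epithelium markers summed to 2196 FPKM in the same library, compared with 0.35 to 66.7 FPKM, and the part of either list in that value was not tested.

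None of these 4 was called between the phases. The log2 fold changes were 0.05 for Oosp1 in spleen (SE 0.17, limma, adjusted p = 0.978), 0.20 for Gdf9 in stomach (SE 0.52, adjusted p = 0.892), -0.08 for Ooep in hypothalamus (SE 0.11, adjusted p = 0.781) and 0.04 for Ooep in uterus (SE 0.44, adjusted p = 0.991). In these tissues, 0.00798% of the genes tested in spleen were called and 0.0% in stomach, hypothalamus and uterus. At an unadjusted p under 0.05 the shares were 3.51% in spleen, 7.38% in stomach, 13.2% in hypothalamus and 3.74% in uterus. The phases did not overlap for 8.78% of the genes tested in spleen, 13.7% in stomach, 19.6% in hypothalamus and 7.91% in uterus, and they overlapped for each of these 4. The difference of each of these changes from that in ovary was also not past the limit (interaction term, limma, adjusted p = 0.788 to 1.0). The study dissected all tissues from the same 3 mice of each phase, and this fit treated the libraries as independent. It also took its spread from the libraries of all tissues. Levels under 1 FPKM included Bmp15 in kidney, at 0.23 to 0.57 FPKM in all 6 libraries, and Nlrp5 in uterus, at 0.24 to 0.79 FPKM.

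Aorta estrus replicate 1 had the highest value of the 6 aorta libraries for all 10 genes, which held for 33.9% of all listed genes and for 64.6% of the 489 genes that were highest in ovary in the sense given above. Gdf9 was at 2.45 FPKM in it against 0.32 to 0.68 FPKM, Ooep at 1.64 FPKM against 0.08 to 0.48 FPKM, and Zp2 at 0.76 FPKM against 0.08 FPKM or less. Zp1 and Figla were listed at 0 in all of the other 5. As shares of the ovary mean, the 10 genes were at 0.849% (Zp3) to 28.6% (Figla), with a median of 2.57%. For the 8 genes whose reads could be approximated, these levels correspond to 3 (Figla) to 52 (Gdf9) reads.

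In the same library, 9 of 9 granulosa cell markers were above the other 5 aorta libraries, with a median of 7.02% of the ovary mean, and 4 of 6 luteal cell markers were, with a median of 3.84%. The granulosa markers summed to 177 FPKM in it, compared with 6.13 to 9.94 FPKM. The library differed in other ways too, with smooth muscle markers at a sum of 15620.5 FPKM against 1670 to 2476 FPKM and white adipocyte markers at 801 FPKM against 4361 to 9075 FPKM. The part that any of these had in the 10 values was not tested. Without this library, the highest values of Zp1, Zp2, Zp3 and Figla outside ovary were 0.16, 0.54, 0.17 and 0.17 FPKM.

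**Figure D5:**
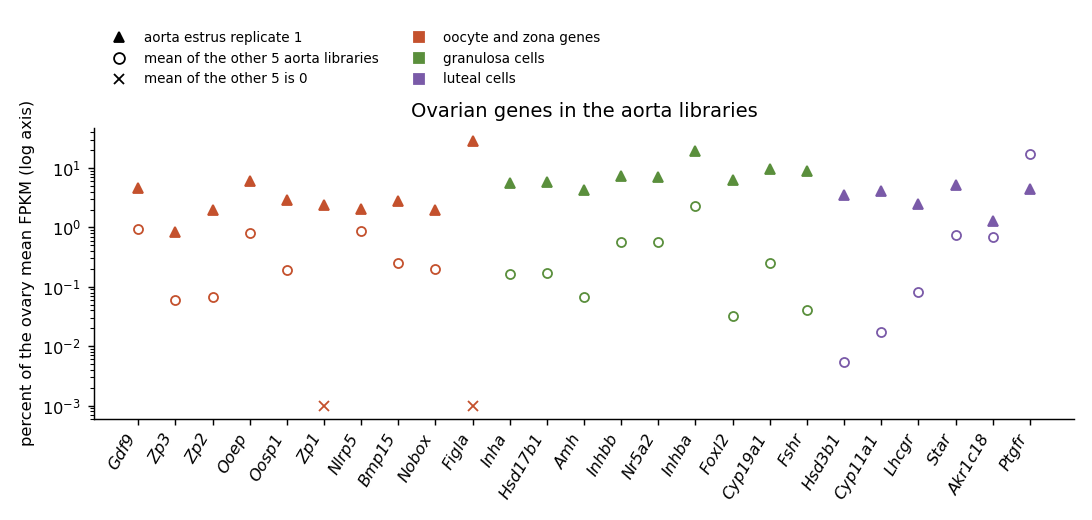
Level of the 10 oocyte and zona genes and of the granulosa and luteal cell markers in aorta, as a percent of the ovary mean FPKM (log axis); triangles are aorta estrus replicate 1, open circles the mean of the other 5 aorta libraries, and crosses genes at 0 in those 5. Triangles lie above the mean of the other 5 libraries for all genes shown except Ptgfr.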

How the data were processed

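RNA-sequencing was performed by the authors on 90 libraries (15 tissues, 2 phases, 3 mice per phase). SOAPnuke filtering was followed by alignment to GRCm38.p5 with Bowtie2 2.2.5 and quantification with RSEM 1.2.8, per the labels and the methods of the study. The deposited matrix used here holds FPKM for 20414 genes and no counts, so the authors' read-based test was not run. RSEM divides reads that match several genes, so members of families such as Nlrp, Oosp, Obox and Pramel are less certain.

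In each tissue, genes averaging 1 FPKM or more were compared as log2(FPKM + 1) by limma 3.58.1 (R 4.3.3) with an intensity trend and Benjamini-Hochberg adjustment over the tissue's genes; this scale understates the change of low genes. The p-values of these fits within a tissue measure the spread among 3 mice per phase. On simulated ovary data (13587 genes), 89.5% of log2 changes of 1.5 and 97.5% of changes of 3 were recovered. The changes were given to 200 genes with a mean log2(FPKM + 1) above 3, which Figla does not reach, each at its own SD. The median SD within the phases was 0.41 for the 10 genes and 0.18 for all genes. The recovered shares therefore need not hold for the 10 genes. Depth, approximated from the steps between FPKM values of 931 short single-transcript genes at an assumed read length of 50 bases, was 9.22M to 17.9M reads. The study reports a higher number of reads generated per sample. The read numbers given for single genes rest on this approximation. BAT estrus replicate 3 gave no value and lists 12048 genes at 0, against 2404 to 4820 in the others. RefSeq named 20265 genes. The 10 genes and all lists were chosen with earlier results of these data known. Named genes were the 10, those of each list called or among its 3 highest in ovary, and the 10 most correlated; others of the lists were named after their values were seen. The lists for squamous epithelium and uterine stroma had 0 genes reaching 1 FPKM in ovary, and the 2 theca cell markers had a median ratio of 0.579 in ovary estrus replicate 3.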

Additional observations from a re-analysis of the deposited data

How the results depend on the processing

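The 0 calls among the 10 genes, and among the other oocyte genes, in ovary held under every alternative run: a pseudocount of 0.1, no filter on low values, another scaling (median of ratios or TPM), a single fit of all 90 libraries, no intensity trend, and each ovary library left out in turn. The lowest adjusted p of the 10 in these limma fits was that of Nobox in the fit of all libraries, 0.000464, with its log2 fold change of -0.38 under the limit of size. That fit took its spread from all tissues, and outside ovary Nobox was at 0 in 56 of 84 libraries and at most 0.2 FPKM. Its SE was 0.071 there, compared with 0.16 in the ovary fit, and libraries of the same mice were treated as independent. This p therefore does not measure the spread among mice in ovary. The ranking of ovary above all other libraries held for 10 of 10 genes when aorta estrus replicate 1, or BAT estrus replicate 3, was left out. The median log2 fold change of the 10 was between -0.22 and -0.17 under the pseudocount and scalings. With 1 library left out it was between -0.39 (without estrus replicate 2) and 0.09 (without estrus replicate 3). The sign of 6 of the 10 genes changed when estrus replicate 3 was left out, and that of 1 at most when any other library was. Over these 6 settings the log2 fold change was -0.17 to 0.43 for Bmp15, -0.40 to 0.041 for Figla, -0.53 to 0.020 for Gdf9, -0.50 to -0.23 for Nobox, -0.35 to -0.01 for Nlrp5, -0.35 to 0.35 for Ooep, -0.46 to 0.30 for Oosp1, -0.39 to 0.11 for Zp1, -0.39 to 0.074 for Zp2 and -0.54 to 0.14 for Zp3, and the median correlation of the pairs was 0.571 to 0.929. Relative to the other oocyte genes, an alternative added after the values were seen, Figla (0.0014) and Ooep (0.071) changed sign.

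The replicate number as a block was tried, with 0 calls, a median of -0.20 and a smallest adjusted p of 0.887 (limma). The numbers do not pair the mice, since the study assigned different mice to each phase. The deviations of same-numbered estrus and diestrus libraries had correlations of -0.14, 0.09 and 0.09, and those of differently numbered libraries -0.26 to 0.18. With 3 libraries per phase, these values cannot decide whether libraries of the same number share anything else.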
